A study of Mus musculus with 6 samples.

Results

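Aminoacyl-tRNA synthetases are the enzymes that join each amino acid to its transfer RNA, the step that gives the genetic code its meaning. Cytosolic enzymes serve the ribosomes of the cytoplasm, and a separate, nuclear-encoded set is imported to serve the ribosomes of mitochondria. Several cytosolic enzymes sit together in the multi-synthetase complex, held by the scaffold proteins Aimp1, Aimp2 and Eef1e1, and many of the genes are known targets of Myc and of Atf4, the transcription factor of the amino acid response.

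The genes were taken by symbol, as every gene on the array whose symbol has the form used for this enzyme family, and each was represented by its brightest probe set over the arrays. This gave 35 of the 18193 genes with a probe set of their own. Of these, 17 are cytosolic, 2 (Gars for glycine and Kars for lysine) serve both compartments, and 16 are mitochondrial. The aspartate enzymes were not analysed here.

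The study profiled total RNA from 6 mouse bone marrow samples, 2 in each of 3 groups, on Affymetrix 3' expression arrays that hold 45101 probe sets. In the MN1VP16 group the sorted cells were GFP+ and carried the gammaretroviral vector pSF91-MN1VP16-IRES-GFP, which encodes MN1 joined to VP16, a viral activation domain. The MN1 group was GFP+ and carried pSF91-MN1-IRES-GFP, with MN1, a transcriptional cofactor overexpressed in some acute myeloid leukaemias. The Gr1Mac group was marrow sorted for Gr1 and CD11b, which mark granulocytes and monocytes. All labels give the strain as C57BL6 and the same protocols, in which C57BL/6J donors received 150 mg/kg of 5-fluorouracil for 4 days and their marrow was stimulated for 48 h with hIL6, mIL3 and mSCF, transduced, transplanted into syngeneic mice and sorted by flow cytometry 4 weeks later. Whether the Gr1Mac cells were themselves transduced or transplanted, the age of the animals, and whether samples of a group came from separate mice are not given in the sources used here. The p-values therefore measure the spread between arrays of a group, which may be technical, and the number of arrays limits the precision. Because the Gr1Mac cells were sorted on myeloid surface markers and the others on GFP, construct and sorted cell type cannot be told apart in the comparisons with Gr1Mac.

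The labelled cell types were set against marker lists. Mature neutrophil markers had a mean log2 intensity of 13.30 to 13.50 on the MN1VP16 arrays, 12.36 to 13.20 on the MN1 arrays and 14.17 to 14.28 on the Gr1Mac arrays, so granulocyte transcripts were abundant in all groups. Stem and progenitor markers averaged 9.59 to 10.23 in MN1VP16, 11.16 to 11.30 in MN1 and 6.41 to 6.59 in Gr1Mac. The probe set of Mn1 read 4.00 to 4.92 in MN1VP16, 3.92 to 4.51 in MN1 and 3.63 to 4.21 in Gr1Mac. These ranges overlap and lie at background, so the endogenous transcript gave no check of the labels. Sex-linked transcripts split the arrays otherwise than the groups do: Xist was bright on both MN1 arrays and Gr1Mac array 1, and Y-linked genes were bright on both MN1VP16 arrays and Gr1Mac array 2. The 23 bright control features split them again, with both MN1 arrays and MN1VP16 array 1 on one side, and MN1VP16 array 2 and both Gr1Mac arrays on the other. Values within each of these splits stand beside the results they touch.

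Synthetase transcripts were higher in MN1 cells than in Gr1Mac cells across most of the family. Of the 35 genes, 28 rose and 0 fell in the limma test (adjusted p under 0.05 over all genes), while 17.3% of all genes tested rose and 12% fell. At an unadjusted p under 0.05, 32 rose and 0 fell, against 4026 and 3217 of all 18193 genes. The median log2 difference over the 35 genes was 1.37, against -0.06 over all genes. For 34 genes both MN1 arrays lay above both Gr1Mac arrays, an arrangement found for 30.9% of all genes. In bulk samples like these, fewer cells of a type and less RNA per cell cannot be told apart.

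**Figure D1:**
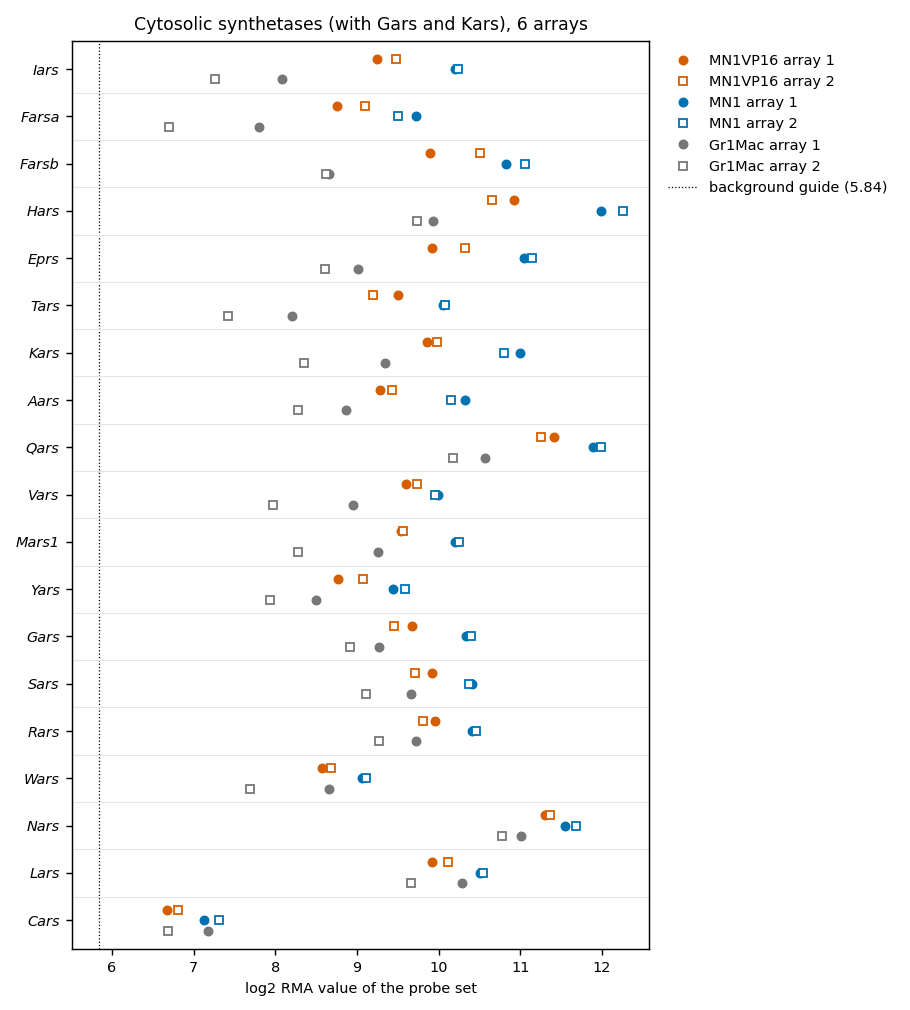
Log2 intensity of the cytosolic and dual-compartment synthetase genes on the horizontal axis, with genes down the page and MN1VP16 (orange), MN1 (blue) and Gr1Mac (grey) from top to bottom within a gene; filled circles are array 1, open squares array 2 and the dotted line a guide to background at 5.84. For every gene both MN1 arrays lie above both MN1VP16 arrays, and for most genes Gr1Mac is lowest.

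Among the 7 measured enzymes of the multi-synthetase complex, 6 rose in MN1 cells, with a median log2 difference of 1.57 over the 7. Iars, which charges isoleucine tRNA, had log2 intensities of 9.24 and 9.48 in MN1VP16, 10.19 and 10.24 in MN1, and 8.08 and 7.26 in Gr1Mac. Its groups did not overlap, and it was 5.83-fold higher in MN1 than in Gr1Mac (95% CI 3.61 to 9.43, limma adjusted p = 0.00251). Eprs is a single protein with the glutamate and the proline enzyme joined. It read 9.91 and 10.32 in MN1VP16, 11.05 and 11.14 in MN1, and 9.01 and 8.61 in Gr1Mac, a 4.87-fold rise in MN1 over Gr1Mac (CI 3.36 to 7.06, adjusted p = 0.0018). Kars, the lysine enzyme of both compartments, read 9.86 and 9.98 in MN1VP16, 10.99 and 10.80 in MN1, and 9.35 and 8.35 in Gr1Mac, and was 4.13-fold higher in MN1 than in Gr1Mac (CI 2.37 to 7.20, adjusted p = 0.00657). The Gr1Mac arrays lay a full log2 unit apart for this gene, and both stayed below every other array.

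Qars charges glutamine tRNA and has no mitochondrial counterpart in animals, where a separate amidation route is used. Its log2 intensities were 11.41 and 11.26 in MN1VP16, 11.90 and 11.99 in MN1, and 10.57 and 10.18 in Gr1Mac, with MN1 2.96-fold above Gr1Mac (CI 2.15 to 4.09, adjusted p = 0.00308). Mars1, the methionine enzyme, read 9.54 and 9.56 in MN1VP16, 10.20 and 10.25 in MN1, and 9.26 and 8.28 in Gr1Mac, a 2.74-fold rise in MN1 over Gr1Mac (CI 1.60 to 4.69, adjusted p = 0.0185). Rars, for arginine, also rose, by 0.93 on the log2 scale. Lars, for leucine, was the exception in the complex. It read 9.92 and 10.11 in MN1VP16, 10.50 and 10.55 in MN1, and 10.29 and 9.66 in Gr1Mac, and its log2 difference of 0.55 between MN1 and Gr1Mac (SE 0.24, adjusted p = 0.144) did not pass the test.

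Outside the complex, 10 of 12 cytosolic or dual-compartment enzymes rose in MN1 cells, with a median log2 difference of 1.41. Phenylalanine tRNA is charged by an enzyme built of 2 kinds of subunit, encoded by Farsa and Farsb. Farsa read 8.75 and 9.10 in MN1VP16, 9.72 and 9.50 in MN1, and 7.81 and 6.70 in Gr1Mac, 5.12-fold higher in MN1 than in Gr1Mac (CI 2.74 to 9.57, adjusted p = 0.00617). Farsb read 9.89 and 10.51 in MN1VP16, 10.82 and 11.06 in MN1, and 8.66 and 8.62 in Gr1Mac, 4.93-fold higher in MN1 (CI 3.29 to 7.39, adjusted p = 0.00211). Both subunits thus had high differences, with no overlap between groups. Hars, the histidine enzyme, read 10.92 and 10.66 in MN1VP16, 11.99 and 12.26 in MN1, and 9.93 and 9.73 in Gr1Mac, a 4.90-fold rise in MN1 over Gr1Mac (CI 3.55 to 6.75, adjusted p = 0.00137).

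Tars, for threonine, read 9.51 and 9.19 in MN1VP16, 10.06 and 10.08 in MN1, and 8.20 and 7.43 in Gr1Mac, 4.76-fold higher in MN1 than in Gr1Mac (CI 2.96 to 7.66, adjusted p = 0.00329). Aars, for alanine, read 9.28 and 9.43 in MN1VP16, 10.32 and 10.16 in MN1, and 8.87 and 8.28 in Gr1Mac, 3.17-fold higher in MN1 (CI 2.15 to 4.67, adjusted p = 0.00429). For both genes every MN1 array was above every other array and every Gr1Mac array was below. Vars, for valine, read 9.61 and 9.74 in MN1VP16, 10.00 and 9.95 in MN1, and 8.95 and 7.98 in Gr1Mac, with MN1 2.86-fold above Gr1Mac (CI 1.67 to 4.88, adjusted p = 0.0158). Yars, for tyrosine, read 8.76 and 9.08 in MN1VP16, 9.45 and 9.59 in MN1, and 8.49 and 7.93 in Gr1Mac, a 2.47-fold rise (CI 1.65 to 3.69, adjusted p = 0.0100).

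The remaining cytosolic or dual-compartment enzymes had smaller differences between MN1 and Gr1Mac. Gars, Sars and Nars, for glycine, serine and asparagine, rose by 1.28, 1.00 and 0.73 on the log2 scale. Wars, for tryptophan, had a log2 difference of 0.92 (SE 0.32, adjusted p = 0.0801). Cars, for cysteine, read 6.67 and 6.81 in MN1VP16, 7.13 and 7.31 in MN1, and 7.17 and 6.69 in Gr1Mac. It is the member whose MN1 and Gr1Mac arrays overlapped, and its log2 difference was 0.29 (SE 0.21, adjusted p = 0.371).

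Promoter windows are shown here for Iars, Tars, Aars and Farsb, 4 genes with large differences that hold a Myc-type motif, and for Gars, which holds an Atf4-type motif alone; they were chosen after the values were seen. Each window runs from 250 bases before to 50 bases after the annotated start (RefSeq, GRCm38.p6, 300 bases, 5′ to 3′ on the gene's strand). They lie at chr13:49681880-49682179 (Iars, plus strand), chr15:11399609-11399908 (Tars, minus strand), chr8:111033592-111033891 (Aars, plus strand), chr1:78488848-78489147 (Farsb, minus strand) and chr6:55037751-55038050 (Gars, plus strand). Capitals mark CACGTG, an E-box of the kind Myc and Max bind, and TGATGNAA on either strand, which lies in the composite element that Atf4 binds with C/EBP partners.
Iars: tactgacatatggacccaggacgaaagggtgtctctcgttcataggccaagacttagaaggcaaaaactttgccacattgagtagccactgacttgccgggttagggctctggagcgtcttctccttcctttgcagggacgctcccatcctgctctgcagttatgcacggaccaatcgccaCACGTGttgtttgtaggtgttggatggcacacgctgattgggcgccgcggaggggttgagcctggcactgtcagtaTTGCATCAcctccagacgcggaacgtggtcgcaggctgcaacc
Tars: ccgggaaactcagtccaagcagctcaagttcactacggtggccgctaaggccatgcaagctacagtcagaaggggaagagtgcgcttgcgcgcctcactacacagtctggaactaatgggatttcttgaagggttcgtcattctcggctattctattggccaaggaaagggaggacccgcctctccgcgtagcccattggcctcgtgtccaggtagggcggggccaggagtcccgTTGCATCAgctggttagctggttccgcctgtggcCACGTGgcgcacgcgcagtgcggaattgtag
Aars: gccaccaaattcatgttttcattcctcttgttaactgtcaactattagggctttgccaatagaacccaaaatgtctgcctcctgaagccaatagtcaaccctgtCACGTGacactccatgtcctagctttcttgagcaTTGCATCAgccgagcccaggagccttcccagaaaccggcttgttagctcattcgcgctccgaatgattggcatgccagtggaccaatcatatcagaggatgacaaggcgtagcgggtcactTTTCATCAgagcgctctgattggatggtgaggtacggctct
Farsb: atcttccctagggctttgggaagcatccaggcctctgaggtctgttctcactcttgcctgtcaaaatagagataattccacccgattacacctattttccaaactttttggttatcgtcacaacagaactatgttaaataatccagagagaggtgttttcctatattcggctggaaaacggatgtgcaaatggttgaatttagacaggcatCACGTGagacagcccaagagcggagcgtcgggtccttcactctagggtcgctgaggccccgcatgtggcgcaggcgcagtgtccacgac
Gars: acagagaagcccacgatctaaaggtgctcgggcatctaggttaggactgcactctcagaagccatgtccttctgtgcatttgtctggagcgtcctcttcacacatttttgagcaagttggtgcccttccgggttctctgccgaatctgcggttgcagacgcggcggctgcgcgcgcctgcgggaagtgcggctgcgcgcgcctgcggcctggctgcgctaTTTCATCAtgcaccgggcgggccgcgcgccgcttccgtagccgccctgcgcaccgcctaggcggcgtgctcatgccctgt

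Windows on chr18 were left out for the synthetase genes and kept among all windows, so an unmatched gene may have one there. Promoter windows were matched for 26 of the 35 genes. CACGTG was present in 5 of them (Aars, Ears2, Farsb, Iars and Tars) and in 7.15% of all 32851 windows of that length. TGATGNAA was present on one strand or the other in 5 (Aars, Gars, Iars, Tars and Yars) and in 3.97% of all windows. Aars, Iars and Tars held both, and no motif overlapped another. In Iars the E-box begins 69 bases before the start and the Atf4-type motif lies just after it, whereas in Tars the Atf4-type motif begins 15 bases before the start and the E-box follows it. Aars holds 2 Atf4-type motifs, one on each side of the start. These are matches of letters and say nothing of binding in these cells.

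Most mitochondrial enzymes were also higher in MN1 cells. Of the 16, 12 rose in MN1 cells over Gr1Mac cells and 0 fell, with a median log2 difference of 1.15, and for all 16 both MN1 arrays lay above both Gr1Mac arrays. Nars2, the asparagine enzyme, read 7.69 and 6.73 in MN1VP16, 7.69 and 8.21 in MN1, and 5.64 and 4.60 in Gr1Mac. Its Gr1Mac arrays lay at or below 5.84, the highest reading of a sex-linked transcript on an array that lacks it, used here as a guide to background and chosen after the values were seen. Nars2 was therefore at least 4.33-fold higher in MN1 than in Gr1Mac (adjusted p = 0.00672). Ears2, for glutamate, read 5.84 and 6.33 in MN1VP16, 6.59 and 6.98 in MN1, and 5.50 and 5.35 in Gr1Mac, and was at least 1.94-fold higher in MN1 (adjusted p = 0.00805). Mars2 was at or below the guide on all arrays, between 3.13 and 4.47, so its call rests on dim signal.

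Lars2, the mitochondrial leucine enzyme, read 8.51 and 8.58 in MN1VP16, 9.53 and 9.77 in MN1, and 7.39 and 6.90 in Gr1Mac, 5.66-fold higher in MN1 than in Gr1Mac (CI 3.94 to 8.15, adjusted p = 0.00141). Iars2, for isoleucine, read 8.26 and 7.87 in MN1VP16, 9.19 and 9.39 in MN1, and 7.20 and 6.72 in Gr1Mac, 5.02-fold higher in MN1 (CI 3.37 to 7.48, adjusted p = 0.00203). In both genes the 3 groups formed separate steps, with MN1VP16 between the others. Rars2, for arginine, read 9.20 and 9.33 in MN1VP16, 10.00 and 10.09 in MN1, and 8.44 and 8.35 in Gr1Mac, a 3.14-fold rise in MN1 over Gr1Mac (CI 2.42 to 4.06, adjusted p = 0.00168). Tars2, for threonine, read 7.79 and 8.26 in MN1VP16, 8.93 and 8.96 in MN1, and 7.67 and 6.85 in Gr1Mac, a 3.22-fold rise (CI 1.91 to 5.43, adjusted p = 0.0100). The Gr1Mac arrays were closer together for Rars2 than for Tars2.

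Yars2, the mitochondrial tyrosine enzyme, read 6.45 and 6.25 in MN1VP16, 7.23 and 7.39 in MN1, and 6.11 and 5.64 in Gr1Mac, 2.70-fold higher in MN1 than in Gr1Mac (CI 1.89 to 3.86, adjusted p = 0.00515). Fars2, the single-chain mitochondrial phenylalanine enzyme, read 8.58 and 8.45 in MN1VP16, 8.78 and 8.90 in MN1, and 8.20 and 7.17 in Gr1Mac, with MN1 2.23-fold above Gr1Mac (CI 1.27 to 3.93, adjusted p = 0.0463). Pars2, Vars2 and Sars2, for proline, valine and serine, rose by 1.07, 1.06 and 0.99 on the log2 scale. Wars2, Cars2 and Hars2, for tryptophan, cysteine and histidine, had log2 differences of 0.83, 0.79 and 0.59 that did not pass the test. Aars2, for alanine, read 7.87 and 7.71 in MN1VP16, 7.90 and 7.89 in MN1, and 7.70 and 7.81 in Gr1Mac. Its log2 difference between MN1 and Gr1Mac was 0.14 (SE 0.15, adjusted p = 0.554), the smallest of the 35.

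**Figure D2:**
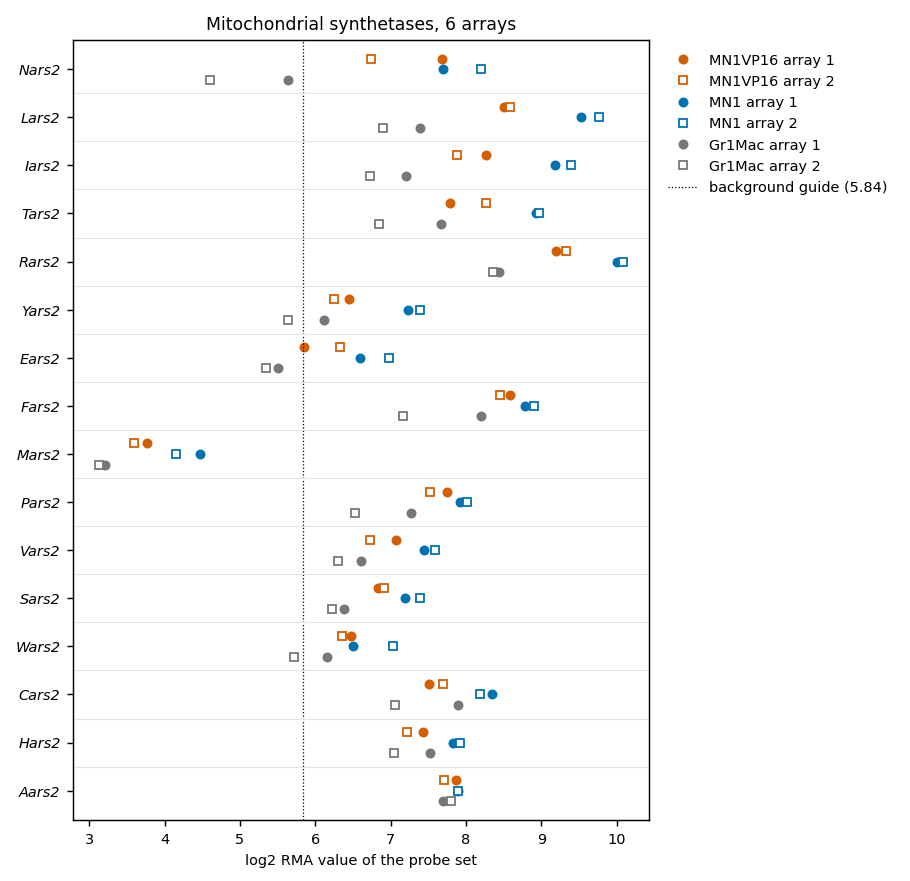
Log2 intensity of the 16 mitochondrial synthetase genes on the horizontal axis, drawn as for the cytosolic genes, with MN1VP16 (orange), MN1 (blue) and Gr1Mac (grey) from top to bottom within a gene, circles for array 1, squares for array 2 and the background guide dotted. MN1 is above Gr1Mac for every gene, by the least for Aars2, and Mars2 is dim throughout.

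Enzymes for the same amino acid in the 2 compartments did not always have like differences between MN1 and Gr1Mac. For leucine the log2 difference was 0.55 for cytosolic Lars and 2.50 for mitochondrial Lars2. The order was the other way for alanine, with 1.66 for Aars and 0.14 for Aars2, and for histidine, with 2.29 for Hars and 0.59 for Hars2. For isoleucine the values were close, at 2.54 for Iars and 2.33 for Iars2. Whether the genes of a pair differ from each other was not tested.

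**Figure D3:**
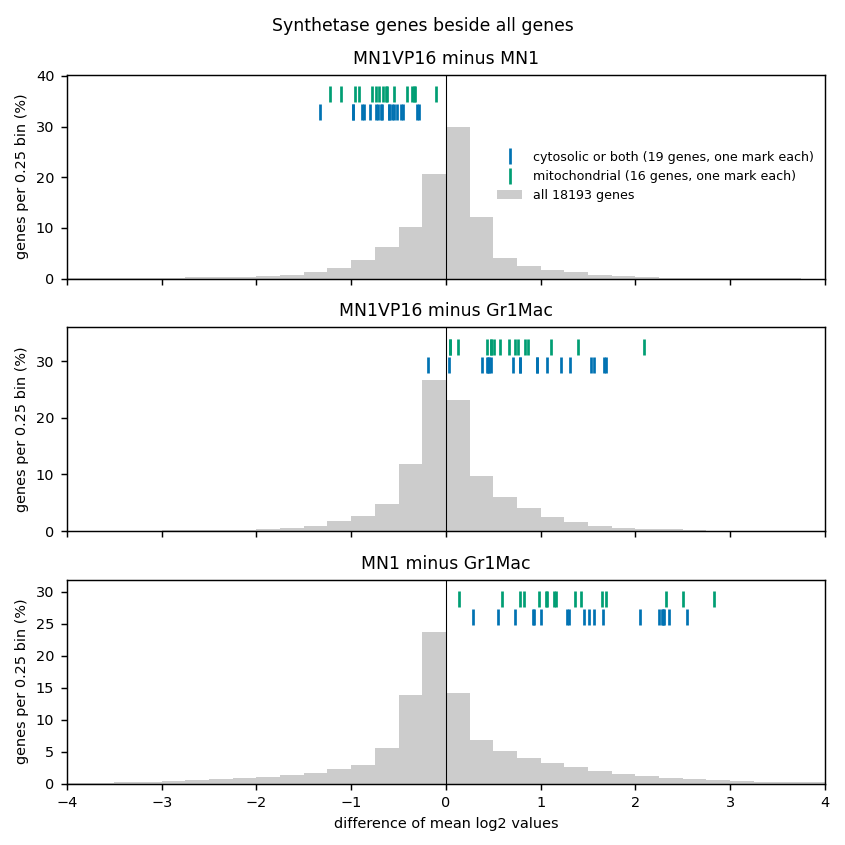
Distribution of log2 differences (horizontal axis) over all genes as percent of genes per bin (grey), with 1 tick for each cytosolic or dual-compartment (blue) and mitochondrial (green) synthetase gene, in 1 panel for each comparison. The synthetase median is 0.73 for MN1VP16 minus Gr1Mac, 1.37 for MN1 minus Gr1Mac and -0.66 for MN1VP16 minus MN1, and the median of all genes lies near 0 in each.

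The result was set against the array splits and the level of the arrays. The mean of the MN1 arrays exceeded Gr1Mac array 1, which shares their Xist reading, by a median log2 value of 1.09, and the difference was positive for all 35 genes. MN1 and Gr1Mac lie wholly on opposite sides of the control-feature split. With it as a block, estimated through the MN1VP16 arrays alone, 8 genes rose, while 5.02% of all genes rose. The median log2 difference with this block was 1.41, with 34 of 35 positive, and the median standard error was 0.41, against 0.23 without the block. Without MN1 array 2 the median was 1.31, with all 35 positive. The 3 groups also differed in the median of all genes, 6.43 to 6.53 in MN1VP16, 6.52 to 6.54 in MN1 and 6.24 to 6.31 in Gr1Mac. This shift of 0.26 in log2 for MN1 over Gr1Mac was removed by centring each array. The synthetase median was then 1.11 against -0.32 for all genes, and 26 of the 35 rose, while 13.7% of all genes rose. The share of higher among all called genes was 38.3%, against 59.0% without centring.

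Marker genes of several cell types moved with this comparison. Of stem and progenitor markers 7 of 7 rose and of erythroid markers 6 of 8 rose in MN1, with erythroid means of 10.67 to 11.24 on the MN1 arrays and 7.51 to 7.66 on the Gr1Mac arrays. Of mature neutrophil markers 6 of 9 fell, and of monocyte and macrophage markers 4 of 6 fell, with means of 7.94 to 8.01 in MN1 and 10.53 to 11.26 in Gr1Mac. Mast cell and basophil markers rose for 3 of 6, with means of 8.74 to 9.43 in MN1 and 5.15 to 5.62 in Gr1Mac. Megakaryocyte markers rose for 2 of 6, and 1 of 6 B cell and 1 of 6 T and NK cell markers fell. Over all genes 17.3% rose and 12% fell. The part of these markers in the synthetase differences was not tested.

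The Gr1Mac arrays differed from each other in these genes more than the other pairs did. Gr1Mac array 1 was above Gr1Mac array 2 for 34 of 35 synthetase genes, by a median of 0.48 in log2, while over all genes it was above for 9743 of 18193, by a median of 0.03. Between the MN1VP16 arrays array 1 was above for 16 of 35, and between the MN1 arrays for 8 of 35, with medians of -0.06 and -0.09. The spread between the Gr1Mac arrays enters the error of every comparison here. They are also the only pair with opposite sex-linked readings, with Xist at 10.44 on array 1 and 5.83 on array 2. Whether that difference bears on the synthetase genes was not tested.

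MN1VP16 cells had synthetase levels above those of Gr1Mac cells for a smaller number of genes. Of the 35, 8 rose and 0 fell, while 3.66% of all genes tested rose and 2.11% fell. At an unadjusted p under 0.05, 24 rose and 0 fell, against 2444 and 1869 of all 18193 genes. The 8 genes called after adjustment were Iars, Farsb, Tars, Eprs, Qars and Hars of the cytosol and Lars2 and Rars2 of the mitochondrion. The median log2 difference over the 35 was 0.73, against -0.00051 over all genes, and for 29 genes the MN1VP16 arrays lay above both Gr1Mac arrays, as for 24.8% of all genes.

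Iars had the largest of these called differences, 3.22-fold above Gr1Mac (CI 1.99 to 5.20, limma adjusted p = 0.0320), followed by Farsb at 2.95-fold (CI 1.97 to 4.42, adjusted p = 0.0267) and Tars at 2.90-fold (CI 1.80 to 4.67, adjusted p = 0.0379). Lars2 was 2.63-fold higher (CI 1.83 to 3.79, adjusted p = 0.0269) and Eprs 2.48-fold (CI 1.71 to 3.59, adjusted p = 0.0319). Qars, Hars and Rars2 were 1.95-fold, 1.94-fold and 1.83-fold higher, with adjusted p of 0.0452, 0.0451 and 0.0345. Nars2, at least 2.59-fold higher, missed the test (adjusted p = 0.0560), as did Farsa at 3.19-fold (adjusted p = 0.0573). Cars was the member with a negative difference, of -0.19 (SE 0.21, adjusted p = 0.683).

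The number of calls moved when single arrays were left out, for these genes and over all genes. No synthetase gene was called in every such fit. With a group of 1 the remaining arrays give the spread, so the size of the difference is given here. The median difference was 0.73 in both fits without an MN1 array, which do not touch the difference itself, 0.79 without MN1VP16 array 1, 0.61 without MN1VP16 array 2, 0.99 without Gr1Mac array 1 and 0.43 without Gr1Mac array 2. With arrays centred on the median of all genes, which removes a shift of 0.21, 6 rose, while 2.91% of all genes rose. The share of higher among all called genes was then 35.9%, against 63.4% without centring. The fits without MN1VP16 array 1 and without Gr1Mac array 1 also compare arrays within a split, so the splits add no further medians. MN1VP16 array 2 was above the mean of the Gr1Mac arrays, which share its control-feature reading, for 32 of 35 genes. The mean of the MN1VP16 arrays was above Gr1Mac array 2, which shares their Y-linked reading, for 34 of 35 genes. Against Gr1Mac array 1, the brighter of that pair for 34 of 35 genes, the MN1VP16 mean was above for 30 and below for 5. Stem and progenitor markers rose for 4 of 7 and erythroid markers for 3 of 8 in this comparison, with erythroid means of 8.51 to 9.29 in MN1VP16 and 7.51 to 7.66 in Gr1Mac. Mast cell markers rose for 2 of 6 and B cell markers for 1 of 6, and 1 of 6 T and NK cell markers fell. Over all genes 3.66% rose and 2.11% fell. The neutrophil, monocyte and megakaryocyte lists had 0 calls in limma. At an unadjusted p under 0.05, 3 neutrophil markers were lower, 4 megakaryocyte markers were higher and 0 monocyte markers passed. Over all 18193 genes 2444 were higher and 1869 lower at that threshold. Their part in the result was not tested.

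**Figure D4:**
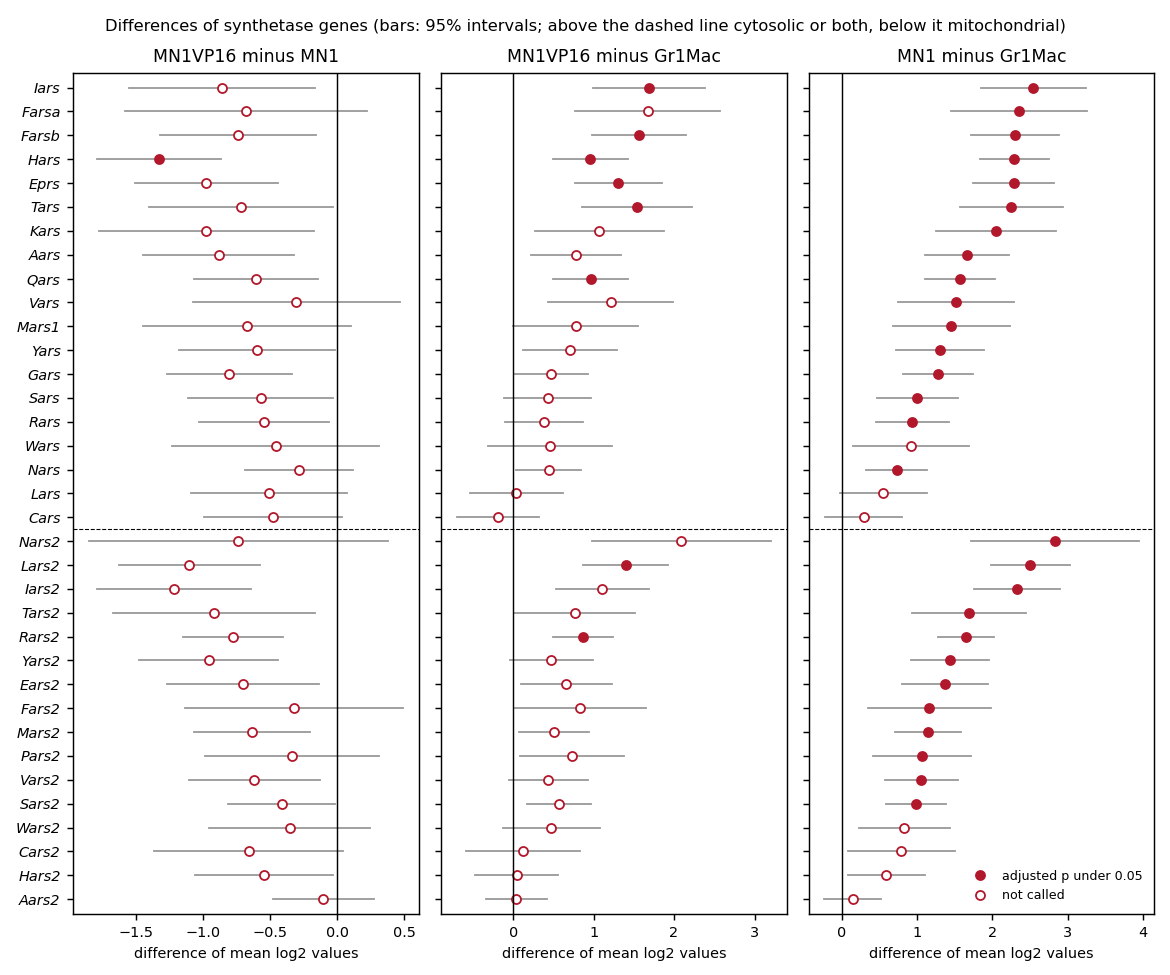
Log2 difference and 95% confidence interval of each synthetase gene in each comparison, with filled points where the limma adjusted p is under 0.05. All 35 differences are positive for MN1 minus Gr1Mac and negative for MN1VP16 minus MN1, and Cars alone is negative for MN1VP16 minus Gr1Mac.

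Between the constructs, synthetase transcripts were lower with MN1VP16 than with MN1, but only Hars passed the test in limma. Hars was 2.52-fold lower in MN1VP16 (CI 1.83 to 3.47, adjusted p = 0.0286), and 0 genes rose, while 2.70% of all genes tested fell and 1.15% rose. At an unadjusted p under 0.05, 22 fell and 0 rose, against 2427 and 1664 of all 18193 genes. The median log2 difference over the 35 genes was -0.66, against 0.03 over all genes. For all 35 genes both MN1VP16 arrays lay below both MN1 arrays, an arrangement found for 29.2% of all genes.

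After Hars, the largest differences were those of Iars2, at -1.22 (SE 0.24, adjusted p = 0.0516), and Lars2, at -1.10 (SE 0.21, adjusted p = 0.0522). Rars2 had a smaller difference of -0.78 (SE 0.15, adjusted p = 0.0526). Eprs, Kars and Yars2 had log2 differences of -0.98, -0.98 and -0.96, and none passed the test. At the other end, Aars2, Nars and Vars had differences of -0.10, -0.28 and -0.30. The median was similar in the compartments, at -0.67 for the 19 cytosolic or dual-compartment genes and -0.65 for the 16 mitochondrial ones.

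The Hars call was lost without MN1 array 1, MN1 array 2 or MN1VP16 array 2, and fewer of all genes fell in those fits. The Hars difference stayed between -1.47 and -1.20 without any 1 array. MN1VP16 array 1, which shares the control-feature reading of the MN1 arrays, was below their mean for 35 of 35 genes, with a median log2 difference of -0.61. MN1 and MN1VP16 lie wholly on opposite sides of the sex-linked split, so that split and the construct cannot be told apart. With it as a block, estimated through the Gr1Mac arrays, the median difference was -0.07 and 22 of 35 were negative. Of marker lists, erythroid markers fell for 4 of 8 and stem and progenitor markers for 1 of 7 in MN1VP16, and monocyte and macrophage markers rose for 4 of 6 and B cell markers for 1 of 6. Over all genes 2.70% fell and 1.15% rose. Monocyte marker means were 10.54 to 11.01 in MN1VP16 and 7.94 to 8.01 in MN1. Their part in the result was not tested.

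Most synthetase genes have more than 1 probe set, which allows a check within the arrays. The 35 genes have 72 probe sets, and 23 genes have several. Of the 37 probe sets not used above, 21 had a mean above the background guide. Of those 21, 13 rose and 0 fell in MN1 over Gr1Mac when all 34945 single-gene probe sets were tested, with a median log2 difference of 1.30. In MN1VP16 over Gr1Mac 4 rose, and in MN1VP16 against MN1 4 fell. Of the 16 with a mean at or below the guide, 5 rose in MN1 over Gr1Mac and 1 fell in MN1VP16 against MN1. The share called among all probe sets of that fit was not computed, and the shares over genes come from another fit. These counts therefore have no background beside them.

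**Figure D5:**
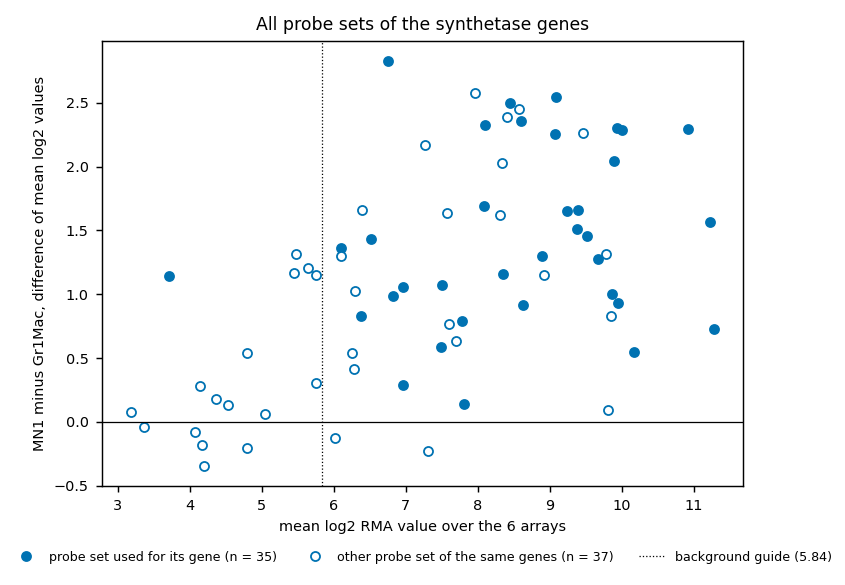
Mean log2 intensity of each synthetase probe set (horizontal) against its log2 difference between MN1 and Gr1Mac (vertical), with filled points for the probe set used for each gene, open points for the 37 others and the background guide dotted. Right of the guide, a second probe set each of Farsa and Lars2 lies below 0, and one of Qars lies at 0.09.

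Probe sets of a gene agreed for some genes and not for others. Both further bright probe sets of Eprs fell in MN1VP16 against MN1, by 1.15 and 1.30 in log2, where the chosen one had -0.98 and missed the test. The second probe set of Hars also fell, by 1.36. In MN1 against Gr1Mac, a second Qars probe set had a log2 difference of 0.09 beside 1.57, one of Farsa had -0.23 beside 2.36, and one of Lars2 had -0.13 beside 2.50. The third bright Qars probe set had 1.31 (adjusted p = 0.0215), and the other Farsa probe sets had 1.02 (adjusted p = 0.0139) and, from dim signal, 1.16 (adjusted p = 0.00723). The chosen probe sets of Iars, Farsa, Farsb, Hars, Aars, Qars and some others carry the suffix _x, _s or _a, which marks designs that can match several transcripts. Without such designs the brightest probe set of Farsa is the one at -0.23.

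Counts over the other gene lists stand beside the shares of all genes given above, 17.3% higher and 12% lower for MN1 over Gr1Mac, 3.66% higher and 2.11% lower for MN1VP16 over Gr1Mac, and 2.70% lower between the constructs. Unadjusted counts between the constructs stand beside 2427 lower and 1664 higher of all 18193 genes. Of the scaffold proteins of the complex, 3 of 3 rose in MN1 over Gr1Mac. Eef1e1 read 9.15 and 9.41 in MN1VP16, 10.41 and 10.69 in MN1, and 7.87 and 6.89 in Gr1Mac, 8.99-fold higher in MN1 (limma adjusted p = 0.00218) and 3.74-fold higher in MN1VP16 (adjusted p = 0.0349) than in Gr1Mac. Aimp1 read 10.54 and 10.30 in MN1VP16, 10.98 and 11.04 in MN1, and 10.14 and 9.47 in Gr1Mac, and rose 2.30-fold in MN1 over Gr1Mac (adjusted p = 0.0158). Aimp2 read 8.92 and 9.16 in MN1VP16, 9.69 and 9.93 in MN1, and 8.94 and 8.13 in Gr1Mac, and rose 2.43-fold in MN1 over Gr1Mac (adjusted p = 0.0211). Neither Aimp1 nor Aimp2 passed in MN1VP16 over Gr1Mac, and 0 of 3 passed between the constructs in limma, with 2 lower at an unadjusted p under 0.05.

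Of 11 relatives and partners outside the symbol rule, 8 rose in MN1 over Gr1Mac, 1 rose in MN1VP16 over Gr1Mac and 2 fell in MN1VP16 against MN1. Tarsl2, a second cytosolic threonine enzyme, read 7.10 and 7.41 in MN1VP16, 9.11 and 9.49 in MN1, and 6.07 and 5.68 in Gr1Mac. It passed all 3 tests, 10.7-fold higher in MN1 than in Gr1Mac (adjusted p = 0.00107), 2.61-fold higher in MN1VP16 than in Gr1Mac (adjusted p = 0.0311) and 4.13-fold lower in MN1VP16 than in MN1 (adjusted p = 0.0198). Pstk, the kinase on the route to selenocysteine tRNA, rose 3.58-fold in MN1 over Gr1Mac (adjusted p = 0.0106). Dtd1, which removes D-amino acids from tRNA, was 2.36-fold lower in MN1VP16 than in MN1 (adjusted p = 0.0413).

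Of 39 measured genes that make and modify tRNA, 29 rose and 1 fell in MN1 over Gr1Mac, 10 rose in MN1VP16 over Gr1Mac, and 2 fell in MN1VP16 against MN1, where 2.70% of all genes fell. Pus7, a pseudouridine synthase, was below the background guide on both Gr1Mac arrays. It was at least 9.94-fold higher in MN1 than in Gr1Mac (adjusted p = 0.00129), at least 2.73-fold higher in MN1VP16 than in Gr1Mac (adjusted p = 0.0258) and 3.64-fold lower in MN1VP16 than in MN1 (adjusted p = 0.0396). Trmt61a, the catalytic subunit of a tRNA adenine methyltransferase, was 8.07-fold higher in MN1 (adjusted p = 0.00208) and 4.29-fold higher in MN1VP16 (adjusted p = 0.0258) than in Gr1Mac. Tsen34, of the tRNA splicing endonuclease, was 1.98-fold lower in MN1 than in Gr1Mac (adjusted p = 0.0109). Thg1l, which adds the extra guanosine to histidine tRNA that Hars recognises, was 1.85-fold lower in MN1VP16 than in MN1 (adjusted p = 0.0489).

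Translation factors downstream of charging were also higher in MN1 over Gr1Mac, with 8 of 8 cytosolic elongation and termination factors and 5 of 8 mitochondrial factors called. Abce1, the ribosome recycling factor, was 5.94-fold higher in MN1 (adjusted p = 0.00133) and 3.20-fold higher in MN1VP16 (adjusted p = 0.0182) than in Gr1Mac. Eef2, the translocation factor, was 4.12-fold higher in MN1 (adjusted p = 0.00265) and 2.42-fold higher in MN1VP16 (adjusted p = 0.0379). Of the mitochondrial factors, Mtif2 was 3.26-fold higher (adjusted p = 0.00141) and Tsfm 2.83-fold higher (adjusted p = 0.00322) in MN1 than in Gr1Mac. In MN1VP16 over Gr1Mac 3 cytosolic and 1 mitochondrial factor rose, and 0 of either passed between the constructs in limma, with 5 and 6 lower at an unadjusted p under 0.05.

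Of 25 measured amino acid response genes, 9 rose and 3 fell in MN1 over Gr1Mac, where 12% of all genes fell, 5 rose and 1 fell in MN1VP16 over Gr1Mac, and 0 passed between the constructs in limma, with 10 lower and 1 higher at an unadjusted p under 0.05. The list median was a log2 difference of 0.17 in MN1 over Gr1Mac. Aldh18a1, of proline synthesis, was 15.8-fold higher in MN1 (adjusted p = 0.00129) and 6.42-fold higher in MN1VP16 (adjusted p = 0.0160) than in Gr1Mac. Shmt2, the mitochondrial serine hydroxymethyltransferase, was 11.8-fold higher in MN1 (adjusted p = 0.0018) and 8.13-fold higher in MN1VP16 (adjusted p = 0.0156). In the other direction, Jdp2, a bZIP transcription factor, was 5.12-fold lower (adjusted p = 0.0129) and Chac1, which degrades glutathione, 4.26-fold lower (adjusted p = 0.0052) in MN1 than in Gr1Mac. Slc7a11, the cystine transporter, was below the guide in MN1VP16 and at least 1.18-fold lower there than in Gr1Mac (adjusted p = 0.0380).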

How the data were processed

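The deposited values are log2 intensities, 1 per probe set and array, which per the submitters' processing notes come from the authors' use of RMA, with no version named. This method normalizes across arrays and compresses differences between dim probe sets. Of 45037 probe sets other than controls, 34945 have 1 gene in the platform annotation, 932 have several and 9160 have none; the brightest single-gene probe set stood for each of 18193 genes. The 3 comparisons were fitted in limma 3.58.1 (R 4.3.3) with group as the only term over all 6 arrays (3 residual degrees of freedom), two-sided, with Benjamini-Hochberg adjustment over all genes and a threshold of 0.05. The procedure was tested on simulated data for MN1 minus Gr1Mac, with 100 genes changed by 1 and 100 by 2 in log2. It recovered 10% and 63% of them, with 4 false calls, so genes that missed the test may still differ. The simulation changed 200 of 18193 genes, while 3147 rose and 2187 fell in the data. The adjustment depends on that share, so these recovery rates need not hold for the data. An exact permutation test of 2 arrays against 2 cannot reach that threshold.

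The synthetase genes, pathway lists and marker lists were chosen with earlier results of these data known, so no count over a list is independent evidence. Per-array values are given for the 12 cytosolic or dual-compartment and 8 mitochondrial genes with the largest called differences, any gene called between the constructs and the 3 genes with the smallest differences. Of the other lists, the genes named are the 2 with the largest called differences in each direction, and every gene of a list of 3. For each comparison 15 alternatives were run, but they are not all separate fits. Leaving out either array of the group not compared is the same fit as the 2 groups alone. A block can also equal leaving out 1 array, as the sex-linked block and Gr1Mac array 2 do in MN1 minus Gr1Mac.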

Additional observations from a re-analysis of the deposited data

How the results depend on the processing

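In MN1 minus Gr1Mac, 28 synthetase genes rose (16 cytosolic or dual-compartment, 12 mitochondrial), and leaving out 1 array at a time gave 16 to 32 (10 to 18 and 6 to 14). With the control-feature split as a block 8 rose (4 and 4), while 5.02% of all genes rose. In all 15 alternatives 7 genes were called, Eprs, Farsb, Hars, Iars, Iars2, Lars2 and Rars2. In MN1VP16 minus Gr1Mac, 8 rose (6 and 2); leaving out 1 array gave 0 to 13 (0 to 10 and 0 to 3), the fit to the 2 groups alone 0 (0 and 0), the fit without _x, _s and _a designs 4 (2 cytosolic), the sex-linked split as a block 13 (10 cytosolic), the control-feature block 1 (1 and 0), and 4 mitochondrial genes rose without the dimmest 40% of genes. In MN1VP16 minus MN1, 1 fell (1 and 0), while 2.70% of all genes fell. Leaving out 1 array gave median log2 differences of -0.67 to -0.59. The groups alone gave 2 (1 mitochondrial), while 1.92% of all genes fell. The dim filter, the mean of a gene's probe sets and centring gave 3 each (2 mitochondrial). In those fits 4.39%, 2.68% and 3.18% of the genes tested fell. Either block gave 0. With the sex-linked block 0 of all 18193 genes were called between the constructs, so that count tells nothing particular to the synthetases. With the control-feature block 0.71% of all genes fell, against 2.70% without a block.

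The replicate number as a block left 4 genes (3 cytosolic, 1 mitochondrial) in MN1VP16 minus Gr1Mac, while 2.63% of all genes rose. Same-numbered arrays had correlations of -0.05, 0.08 and -0.05 in their deviations, which gives no sign of a pairing. With 2 arrays a group this cannot show whether same-numbered samples were handled together. The samples share only a number, and the block moved no other count by over 1.5 times.

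Some directions turned. Without _x, _s and _a designs Farsa had -0.23 for MN1 over Gr1Mac, -0.15 for MN1VP16 over Gr1Mac and 0.081 between the constructs. Aars2 in MN1 minus Gr1Mac had -0.11 when centred and -0.017 with the control-feature block. In MN1VP16 minus Gr1Mac it had -0.17 when centred, -0.016 with the sex-linked block, -0.041 with the control-feature block, and -0.041 to 0.12 without 1 array. Cars had -0.43 to 0.051 (0.051 with the sex-linked block) and Lars -0.28 to 0.35 (-0.060 without MN1VP16 array 2, -0.17 when centred). In MN1VP16 minus MN1 the sex-linked block gave positive values for 13 of the 35 genes. Among them were Farsa (0.42), Tars (0.061), Kars (0.024), Vars (0.67), Mars1 (0.31), Nars2 (0.30), Fars2 (0.71), Cars (0.0027) and Lars (0.12). The cause of these changes was not tested. Signal limits 3 genes, Nars2, Ears2 and Mars2, with a group mean at or below the background guide.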
